A study of Mus musculus with 9 samples.

Results

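The 3 FL lines and the 3 BM lines, 6 of the 9 macrophage lines with RNA-seq libraries, were compared gene by gene. FL lines had been grown from total cells of C57BL/6 fetal liver (E14.5) and BM lines from total cells of adult C57BL/6 bone marrow, and both were kept as dividing cells in recombinant human M-CSF. The remaining 3 lines, YS lines 1 to 3 from E9.5 yolk sac of the same strain, entered the statistical fit so that the spread was estimated over all 9 libraries. An FL or BM line was the bulk culture of a separate dish, its starting cells had been pooled from more than 1 mouse, and it had grown out from colonies that appeared when most adherent cells stopped dividing and began to die. A line may thus descend from a limited number of founder cells, and p-values measure the spread among such cultures rather than among animals. Of the 24411 genes in the deposited table of TPM, a read density per transcript length scaled to a fixed total,, 11325 reached 1 TPM in 3 or more of the 6 FL and BM libraries and were tested. A gene was called when limma, on log2(TPM + 1), gave an adjusted p under 0.1 and the fold exceeded 2. All adjusted p-values below are from limma with Benjamini-Hochberg adjustment over the 11325 genes, and log2 fold changes are FL minus BM on the log2(TPM + 1) scale, which understates changes of genes with low TPM.

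M-CSF acts through the receptor CSF1R to keep macrophages alive and, in these cultures, dividing. Fetal liver macrophages are among the precursors of Kupffer cells, the resident macrophages of the liver, whereas marrow gives rise to monocytes that circulate and enter tissues. Resident macrophages are known for scavenger receptors, complement C1q and uptake of dying cells, and macrophages grown from marrow with M-CSF are also the precursors of bone-resorbing osteoclasts.

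All 12 macrophage markers examined were present in both groups, with Csf1r, the receptor for M-CSF, at 2441, 2251 and 2145 TPM in FL lines 1 to 3 and 1879, 1843 and 1811 TPM in BM lines 1 to 3. Clec4f, a marker of Kupffer cells in the adult liver, did not exceed 0.28 TPM in any of the 6 lines. Other resident and Kupffer cell markers, several of them present in every FL line, are described below. Timd4 was listed at 0 in FL line 1 and at 56.4 and 21.7 TPM in FL lines 2 and 3, and Vsig4 reached 11.9 TPM in FL line 2 alone. Of the 12 hepatocyte and hepatoblast markers, 9 stayed under 1 TPM in all 6 lines, with Alb at 0.21 TPM or less and Apoa1, Fgb, Serpina1a, Serpina1b and Hnf4a listed at 0. The other 3 were Trf, Afp and Apoa2. Trf, transferrin, was at 119, 115 and 92.6 TPM in FL lines and 0.13, 6.52 and 0.45 TPM in BM lines. Afp, alpha-fetoprotein, was at 8.84, 12.04 and 20.45 TPM in FL lines and 2.95, 7.79 and 12.21 TPM in BM lines. Apoa2 was at 0.75 TPM or less in FL lines and 2.21 to 3.27 TPM in BM lines. Trf was called higher and Apoa2 lower in FL lines, and Afp was not called. The summed markers of this list were 114 to 129 TPM in FL lines and 5.57 to 16.9 TPM in BM lines, and their part in other results was not tested. Markers of mast cells and B cells did not reach 1 TPM in any of the 6 lines. Of the neutrophil markers S100a8 alone did, with S100a9, Ngp and Elane at 0. In bulk RNA, fewer cells of a type and less RNA per cell cannot be told apart.

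BM line 2 stood apart from BM lines 1 and 3. Its correlation with the FL lines over all tested genes was 0.909 to 0.921, against 0.867 to 0.888 for BM lines 1 and 3. Outside the BM lines, each BM line correlated most with YS line 2, at 0.935 for BM line 2. For BM lines 1 and 3 the value with YS line 2 was 0.892 and 0.885. These values are a description over libraries of the same table. On the first principal component of the 6 libraries (69.8% of the variance), BM line 2 lay at -30.2. BM lines 1 and 3 lay at -52.0 and -56.6 and the FL lines at 43.9 to 49.6. In all, 35 of the tested genes, 0.309%, were at 10 TPM or more in every FL line and under 0.5 TPM in both BM lines 1 and 3. Only 5 of the 35 were also under 0.5 TPM in BM line 2. Among the 21 of them that YS line 2 had at 20 TPM or more, all were at 0.5 TPM or more in BM line 2. Their median in BM line 2 was 9.25 TPM (3.09 to 86.2), with medians of 14.1% of the YS line 2 level and 14.8% of the FL mean. Among the 11 with YS line 2 between 0.5 and 20 TPM, the median in BM line 2 was 0.94 TPM. For these 11 the medians were 11.1% of the YS line 2 level and 3.46% of the FL mean. The 3 with YS line 2 under 0.5 TPM were listed at 0 in BM line 2. Of these genes, those higher in YS line 2 were thus broadly the higher ones in BM line 2, at a small share of the level. It also held globin transcripts, with Hba-a1 at 215 TPM, Hba-a2 at 102 TPM and the embryonic Hbb-y at 43.0 TPM, where BM lines 1 and 3 had at most 0.30 TPM of any of these 3 and YS line 2 had 0, 4.52 and 0.27 TPM. Lower levels of globin transcripts occurred in other lines, with Hba-a2 at 14.2 TPM in FL line 3 and Hba-a1 at 8.62 TPM in YS line 1. The summed erythroid markers were 0.66 to 376 TPM in BM lines and 5.37 to 16.5 TPM in FL lines. In FL lines 1 and 2 most of the sum was the receptor gene Epor, at 3.89 and 5.29 TPM. Where the transcripts in BM line 2 came from was not tested, and calls of named genes that were lost without it are given below.

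**Figure D1:**
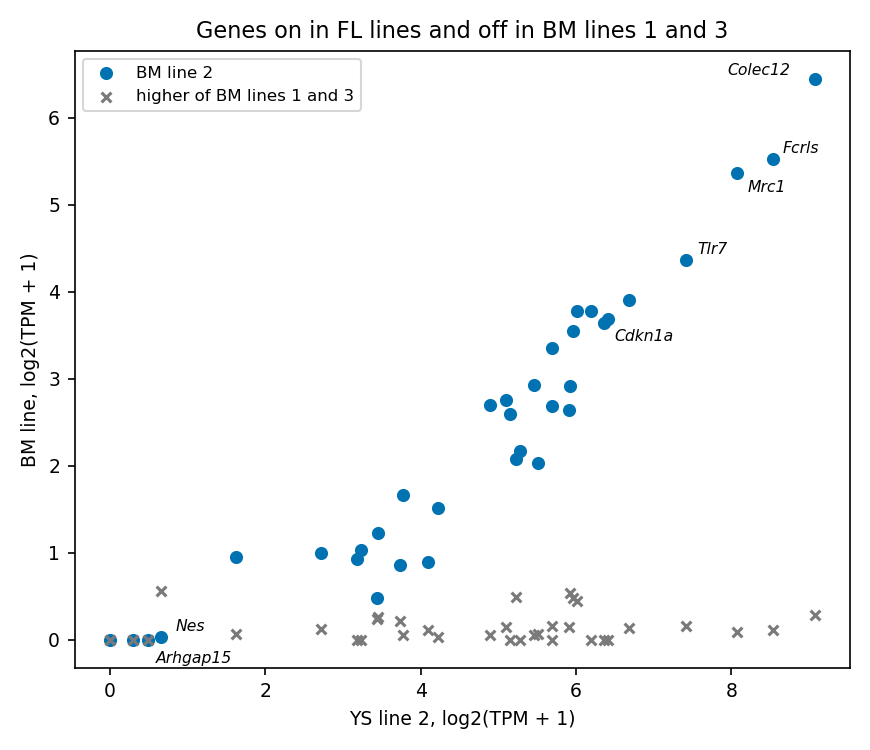
TPM on a log2(TPM + 1) scale for the 35 genes at 10 TPM or more in all 3 FL lines and under 0.5 TPM in BM lines 1 and 3; the horizontal axis is YS line 2 and the vertical axis a BM line (blue points, BM line 2; grey crosses, the higher of BM lines 1 and 3). BM line 2 rises with YS line 2 up to Colec12 at 86.2 TPM, while the crosses stay under 0.5 TPM by construction.

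FL and BM lines differed in 1187 called genes, 10.5% of those tested, of which 687 (6.07%) were higher and 500 (4.42%) were lower in FL lines. The 3 FL lines lay wholly above or wholly below the 3 BM lines in 5698 genes, 50.3% of those tested (31.3% above, 19% below), and in 1160 of the called genes, 10.2% of those tested. Of the 687 genes called higher, 115 were more than 8-fold higher and 18 more than 32-fold. Of the 500 called lower, 80 were more than 8-fold lower and 15 more than 32-fold. These counts are of called genes only, out of 11325 tested. Without BM line 2, 1178 genes (10.4%) were called, 712 higher (6.29%) and 466 lower (4.11%), and 1075 of these were called in the same direction with it, so that 112 calls were lost and 103 gained, and the lines did not overlap in 57.2% of the tested genes. Over all tested genes, FL lines varied more among themselves than BM lines: the median SD of log2(TPM + 1) was 0.18 in FL lines and 0.11 in BM lines, and the FL lines spanned more than 4-fold in 354 genes against 160 for the BM lines. FL line 2 was the line farthest from the other two FL lines in 150 of the 354. Among the 687 genes called higher in FL lines, the median SD was 0.33 in both groups. It was 0.14 in BM lines without BM line 2. Of these 687, the FL lines spanned more than 4-fold in 43 and the BM lines in 69. As a description, the mean of the YS lines lay nearer to the FL mean than to the BM mean for 531 of the 687 higher genes (77.3%) and 381 of the 500 lower genes (76.2%). This share was not computed over all tested genes, so whether called genes differ from the rest in it is not known.

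**Figure D2:**
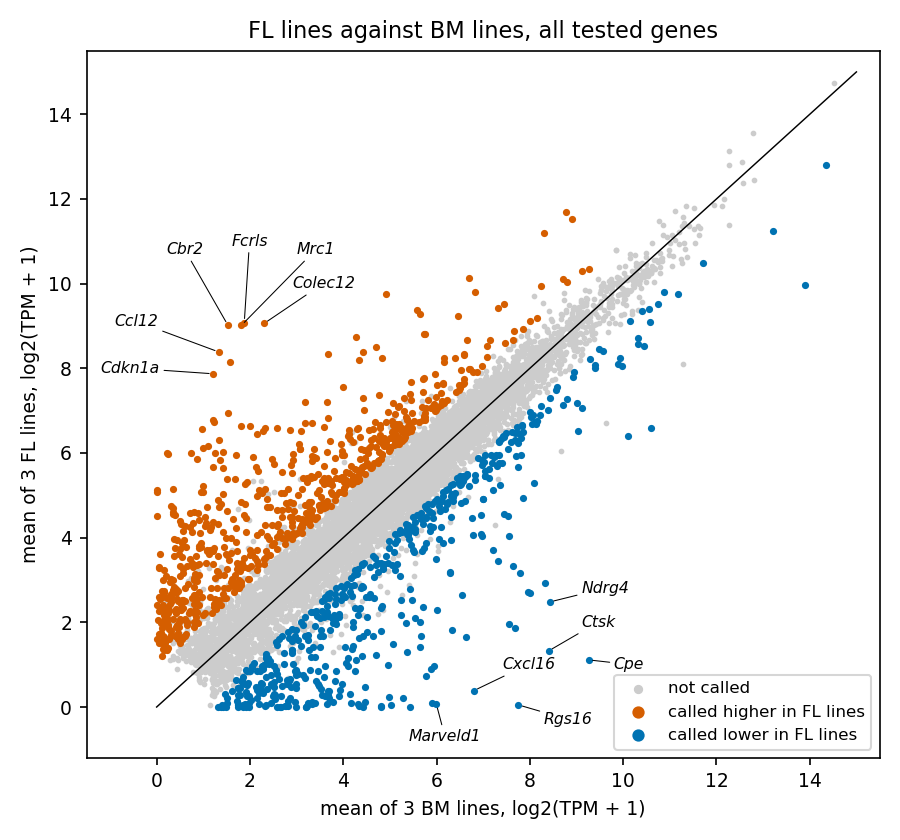
Each point is 1 of the 11325 tested genes, with the mean log2(TPM + 1) of the 3 BM lines on the horizontal and of the 3 FL lines on the vertical axis; orange marks the 687 genes called higher in FL lines, blue the 500 called lower, and the line marks equal values. The labelled genes are the 6 largest rises and the 6 largest falls.

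Several surface receptors stood among the largest rises in FL lines. Cbr2, a carbonyl reductase, was at 194, 2112 and 336 TPM in FL lines 1 to 3 and at 0.76, 8.34 and 0.46 TPM in BM lines 1 to 3, a log2 fold change of 7.49 (SE 1.17, adjusted p = 0.0034). Mrc1, the mannose receptor CD206, was at 541, 567 and 447 TPM in FL lines, listed at 0 in BM line 1 and at 40.2 and 0.06 TPM in BM lines 2 and 3 (log2 fold change 7.20, SE 1.22, adjusted p = 0.0046). In both genes the lowest FL line lay far above the highest BM line, which was BM line 2. Folr2, the folate receptor beta, was at 223, 247 and 413 TPM in FL lines and 1.15, 5.55 and 0.87 TPM in BM lines (6.58, SE 0.98, adjusted p = 0.0028). Colec12, a scavenger receptor with a C-type lectin domain, was at 1064, 1620 and 86.9 TPM in FL lines and 0.22, 86.2 and 0.13 TPM in BM lines (6.76, SE 1.69, adjusted p = 0.024). FL line 3 and BM line 2 were therefore almost level for Colec12, while the other lines were far apart. Fcrls, an Fc receptor-like protein known as a microglial marker, was at 595, 768 and 344 TPM in FL lines and 0, 45.0 and 0.08 TPM in BM lines (7.20, SE 2.22, adjusted p = 0.051). This call passed the threshold of 0.1 narrowly and was lost without FL line 1, FL line 2, BM line 1 or BM line 3 (adjusted p = 0.116, 0.119, 0.165 and 0.163); within YS lines Fcrls ran from 0.22 to 369 TPM, a spread that enters the error. Nes, which encodes the filament protein nestin, differed most cleanly among the rises, at 63.4, 83.1 and 47.2 TPM in FL lines against 0.05, 0.02 and 0.48 TPM in BM lines (5.78, SE 0.25, adjusted p = 1.1e-05), and did not exceed 0.80 TPM in YS lines. Ccl12 (7.05), Cdkn1a (6.66) and the transcripts A530064D06Rik (5.73) and B430306N03Rik (5.58) complete the 10 largest rises by log2 fold change.

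Among the largest falls were secreted and signalling proteins. Cpe, carboxypeptidase E, which trims peptide hormones, was at 0.24, 0.19 and 5.86 TPM in FL lines and 655, 521 and 671 TPM in BM lines (log2 fold change -8.15, SE 1.40, adjusted p = 0.0049). Rgs16, which shortens signals of G protein-coupled receptors, was listed at 0, 0.11 and 0 TPM across FL lines and 218, 197 and 231 TPM in BM lines (-7.70, SE 0.19, adjusted p = 3.5e-07). The BM lines agreed within a narrow range for both genes, and Rgs16 had the smallest adjusted p of all tested genes. Ctsk, the collagen-degrading cathepsin K of osteoclasts, was at 0.84, 1.02 and 3.24 TPM in FL lines and 333, 90.2 and 1270 TPM in BM lines (-7.08, SE 0.80, adjusted p = 0.001). Cxcl16, a membrane-bound chemokine that also binds oxidized lipoprotein, was at 0.31, 0.21 and 0.41 TPM in FL lines and 130, 105 and 98.0 TPM in BM lines (-6.41, SE 0.36, adjusted p = 4.1e-05). Vegfc, a growth factor of lymphatic vessels, was listed at 0 in each FL line, against 36.8, 43.1 and 47.9 TPM across BM lines (adjusted p = 8.7e-05), so that no fold is given. Ndrg4 (-5.95), Marveld1 (-5.93), the lactate exporter Slc16a3 (-5.82), the adhesion molecule Kirrel3 (-5.81) and the transglutaminase Tgm2 (-5.58) complete the 10 largest falls. For Slc16a3 the FL lines disagreed, with FL line 2 at 25.9 TPM and FL lines 1 and 3 at 0.21 and 0.51 TPM, all under the 190 to 229 TPM of the BM lines. Cxcl14, a chemokine of epithelia, Fgfr1, a receptor for fibroblast growth factors, Sema3c, a guidance ligand, and Tspan12, a tetraspanin, were among the 16 genes, 0.141% of those tested, under 0.5 TPM in every FL line and at 10 TPM or more in every BM line. Sema3c and Tspan12, named after their values were seen, were listed at 0 in all 3 FL lines and at 24.3 to 31.5 TPM and 15.2 to 32.1 TPM in BM lines. In the opposite direction, the 5 genes under 0.5 TPM in every BM line and at 10 TPM or more in every FL line were Nes, A530064D06Rik, Arhgap15, Wtip and Mir2861, and the last 3 were listed at 0 in all BM lines. Mir2861 is a short transcript whose TPM is uncertain.

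**Figure D3:**
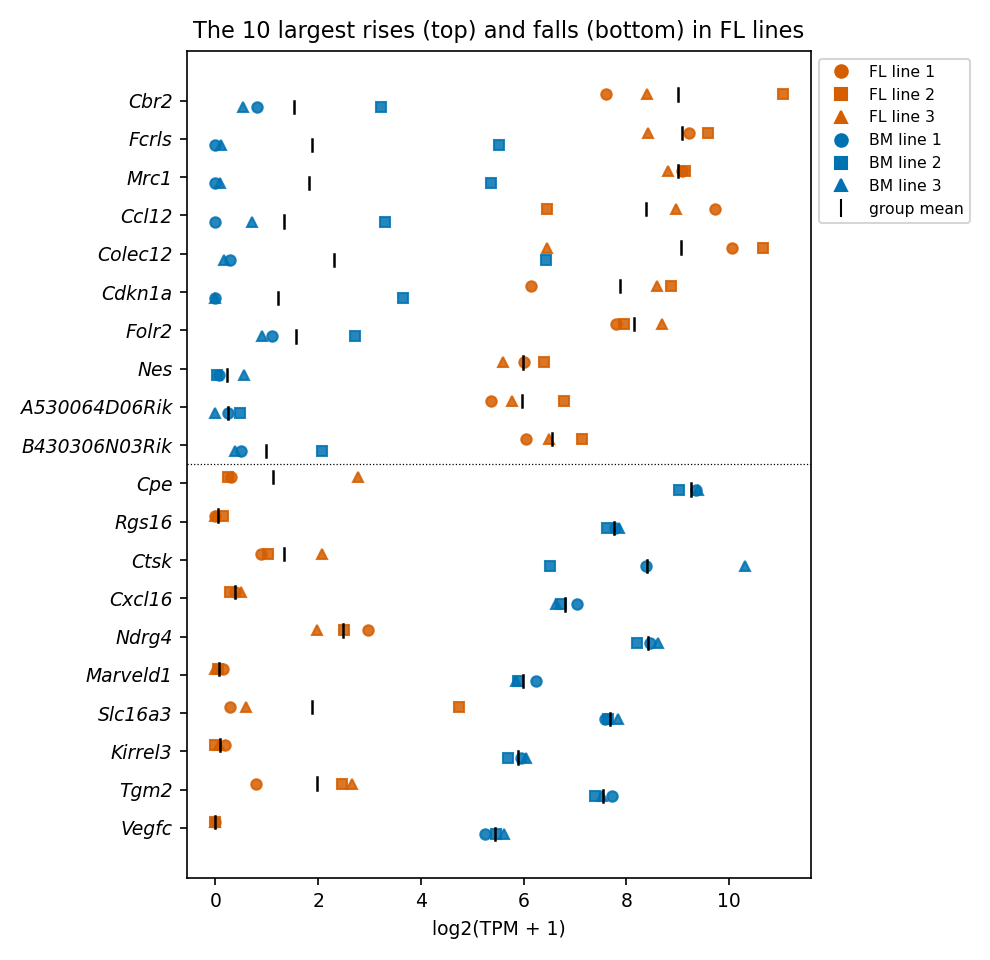
log2(TPM + 1) of each FL line (orange) and BM line (blue) for the 10 largest rises above the dotted line and the 10 largest falls below it; circles, squares and triangles are lines 1, 2 and 3, and black ticks are group means. BM line 2 is the highest BM line in 9 of the 10 rises, while the 3 BM lines lie close together in most of the falls.

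The 250 bases before the annotated start of 4 of these genes are shown because they are the regulatory sequence nearest to the 2 largest rises and the 2 largest falls with an entry in the RefSeq table (GRCm38.p6), each written 5′ to 3′ on the gene's strand; Cpe has no entry. Starts differ between annotations, and another one places a Cbr2 start inside the window shown, so part of that sequence may be transcribed. They were searched on both strands for GAGGAAGT (a site of PU.1, the transcription factor that sets macrophage identity), TGANTCA (AP-1), the spaced motif of IRF factors and CACGTG (E-box), and none of these 4 was present, as in 82.9% of 32851 mouse promoters of this length. The shorter core GAGGAA, a search added after the data were seen and contained in the PU.1 site, is in capitals, also as TTCCTC where it lies on the other strand. It was present in all 4 promoters and in 23.3% of all promoters, in genes that rose and genes that fell alike, and a match is a description of letters and not of binding.
Cbr2, higher in FL lines, chr11:120732022-120732271 (minus strand): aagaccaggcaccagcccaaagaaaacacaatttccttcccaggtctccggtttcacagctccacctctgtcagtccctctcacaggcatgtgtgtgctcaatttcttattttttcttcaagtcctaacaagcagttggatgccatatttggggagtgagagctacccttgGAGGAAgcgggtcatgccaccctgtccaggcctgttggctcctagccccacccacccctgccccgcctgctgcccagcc
Fcrls, higher in FL lines, chr3:87263525-87263774 (minus strand): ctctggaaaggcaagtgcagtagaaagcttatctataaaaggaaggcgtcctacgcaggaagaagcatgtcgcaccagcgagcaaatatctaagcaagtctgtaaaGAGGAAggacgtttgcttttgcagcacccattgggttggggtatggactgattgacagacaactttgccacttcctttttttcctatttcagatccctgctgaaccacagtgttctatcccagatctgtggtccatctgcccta
Rgs16, lower in FL lines, chr1:153740103-153740352 (plus strand): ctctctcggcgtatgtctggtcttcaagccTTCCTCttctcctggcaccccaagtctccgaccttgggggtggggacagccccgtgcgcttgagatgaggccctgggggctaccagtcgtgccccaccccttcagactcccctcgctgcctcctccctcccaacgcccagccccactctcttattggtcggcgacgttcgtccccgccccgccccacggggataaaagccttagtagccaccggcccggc
Ctsk, lower in FL lines, chr3:95498960-95499209 (plus strand): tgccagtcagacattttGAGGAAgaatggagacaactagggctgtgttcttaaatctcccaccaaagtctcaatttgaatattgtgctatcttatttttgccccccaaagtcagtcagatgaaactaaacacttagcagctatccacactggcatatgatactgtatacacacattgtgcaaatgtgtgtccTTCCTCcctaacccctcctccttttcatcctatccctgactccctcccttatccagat

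The 8 called genes whose log2 fold change moved most without BM line 2 were all higher in FL lines. Leaving this line out raised the log2 fold change of Colec12 by 2.07, to 8.83, that of Fcrls by 1.82, to 9.02 (adjusted p = 0.032), and that of Mrc1 by 1.77, to 8.97. Tlr7, Zfp36l1, Ccnd2, B3galnt1 and P2ry12 followed, with gains of 1.26 to 1.42. BM line 2 held these 8 genes at 11.5% to 24.4% of the level in YS line 2. Zfp36l1, an mRNA decay factor, overlapped between the groups because BM line 2, at 13.9 TPM, lay above FL line 3, at 7.53 TPM, and its call (3.56, adjusted p = 0.050) was lost without FL line 1, FL line 2, BM line 1 or BM line 3 (adjusted p = 0.123 to 0.17). The call of B3galnt1, a glycosyltransferase at 95.8 to 99.9 TPM in FL lines, was lost without BM line 1 or BM line 3 (adjusted p = 0.123 and 0.119).

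Gene lists of macrophage biology were then read against the background of 10.5% of genes called and a median log2 fold change of 0.08 over all tested genes. Called members were most frequent among resident and Kupffer cell markers (8 of 12 tested, 66.7%), scavenger and C-type lectin receptors (11 of 20, 55%) and chemokines (8 of 15, 53.3%), and least frequent among genes of MHC class I and peptide loading (1 of 20, 5%) and cell cycle regulators (3 of 44, 6.82%). The shares of 5% and 6.82% rest on 1 and 3 called genes and are not far under 10.5%. Members and lists were chosen with earlier results of these data known, so the order of these shares is partly set by that choice. Shares are of tested members only, 12 of the 20 resident and Kupffer cell markers, and a gene could pass the filter through 1 group alone. The lists share members, such as Mrc1 and Marco, and no test was made over a list.

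**Figure D4:**
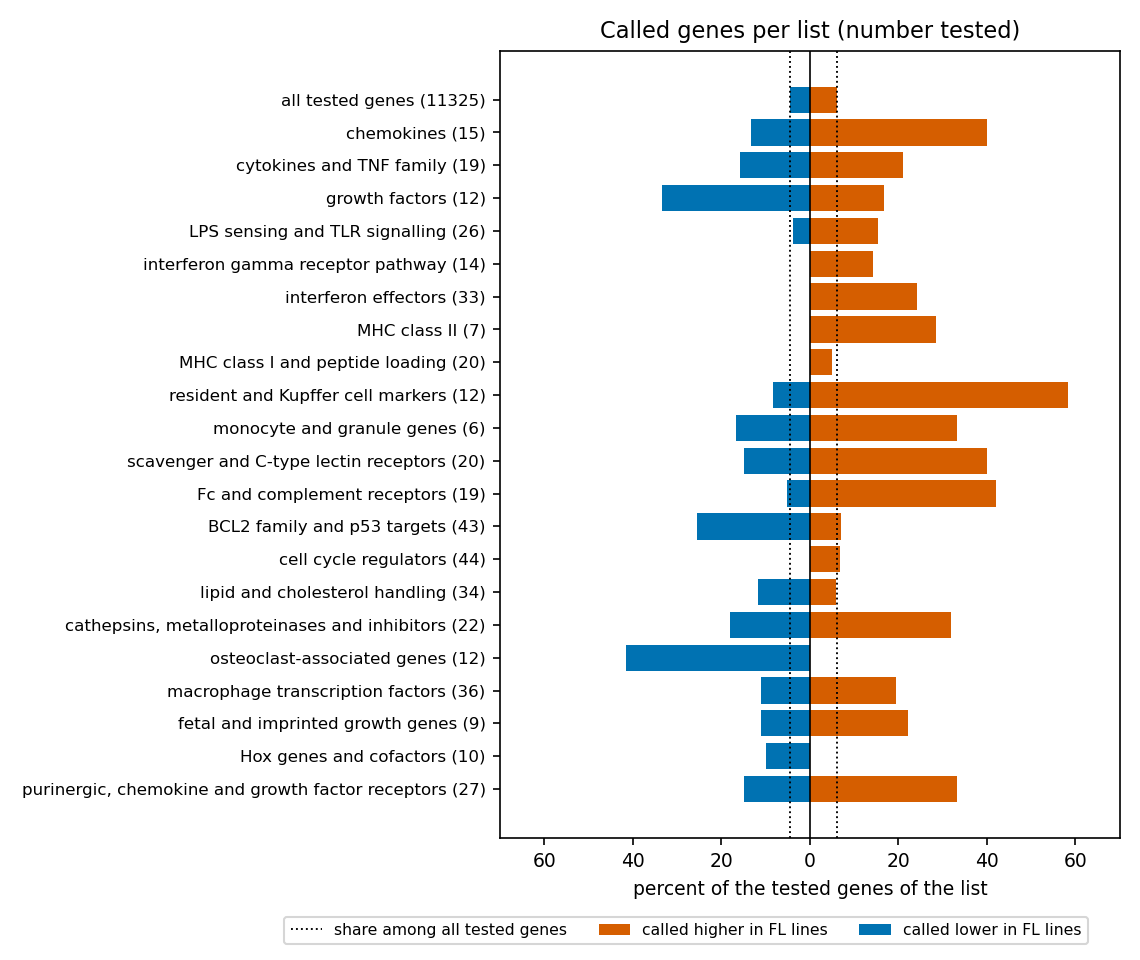
Percent of the tested genes of each list called higher (orange, to the right) or lower (blue, to the left) in FL lines, with the number tested in parentheses; dotted lines mark the 6.07% higher and 4.42% lower among all 11325 genes. The resident and Kupffer cell markers reach farthest to the right and the osteoclast-associated genes farthest to the left.

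Of the 20 resident and Kupffer cell markers, 12 were tested, 7 rose and 1 fell, with a median log2 fold change of 1.34. The risers besides Cbr2, Mrc1 and Folr2 were Marco, Cd5l, Id1 and Slc40a1. Marco, a receptor for bacteria and particles, was at 80.6, 678 and 464 TPM in FL lines and 25.1, 30.4 and 9.21 TPM in BM lines (3.86, adjusted p = 0.073), and only the fit without FL line 1 kept its call (adjusted p = 0.121 without BM line 2, and 0.152 to 0.212 without another line). Cd5l, a secreted protein of tissue macrophages, was at 9.95, 7.94 and 22.02 TPM in FL lines and 0.74, 2.22 and 0.96 TPM in BM lines (2.56, adjusted p = 0.048), and its call was lost without FL line 3, BM line 1 or BM line 3 (adjusted p = 0.138 to 0.145). The groups did not overlap in either gene, although the FL lines were spread widely. Spic, a transcription factor of iron-recycling macrophages, went the other way, at 1.2, 0 and 0 TPM in FL lines and 14.6, 8.81 and 13.3 TPM in BM lines (-3.32, SE 0.40, adjusted p = 0.0012). Of the members not called, Hmox1, which degrades heme, was at 1307 to 2382 TPM in FL lines and 679 to 1155 TPM in BM lines (0.96, adjusted p = 0.13), and Id3 had a log2 fold change of 0.07. Without BM line 3 the number that rose was 4.

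Among 20 scavenger and C-type lectin receptors tested, 8 rose and 3 fell, and the median log2 fold change was 0.25. Clec4a3 was at 74.2, 110 and 106 TPM in FL lines and 7.67, 13.7 and 0 TPM in BM lines (4.26, SE 0.83, adjusted p = 0.0083), with the caution that reads may be shared among the similar Clec4a genes. Clec10a, a lectin for galactose-type sugars, was at 26.5, 18.2 and 16.8 TPM in FL lines and 0.20, 1.34 and 0 TPM in BM lines (3.90, SE 0.50, adjusted p = 0.0016). Both were clear of the highest BM line. Msr1, Stab1 and Clec4a1 also rose. The fallers were Cxcl16, Clec4e and Clec12a, of which Clec4e recognizes mycobacterial glycolipid. Clec12a (-1.51, adjusted p = 0.082) lost its call without BM line 2 (adjusted p = 0.144), and the list had 2 fallers with each line left out in turn. Cd68 and Cd36, a lysosomal glycoprotein and a receptor for fatty acids, were not called, with log2 fold changes of 0.12 and -0.07.

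Fc and complement receptors, with the C1q subunits, counted 8 risers and 1 faller (C3) among 19 tested, 47.4% called, and a median log2 fold change of 1.07. The call of C3, the central complement protein (-2.42, adjusted p = 0.088), was lost without BM line 2 (adjusted p = 0.176), and the list had 0 fallers without any 1 of the lines FL 2, BM 1, BM 2 and BM 3. C1qa was at 4762, 1994 and 3843 TPM in FL lines and 444, 670 and 280 TPM in BM lines (2.92, SE 0.52, adjusted p = 0.0056). C1qb (2.89, SE 0.44) and C1qc (2.64, SE 0.40) had an adjusted p of 0.0031 each. The 3 genes encode the 3 chains of C1q, which opens the classical complement pathway, and for each the lowest FL line, FL line 2, was above every BM line. Fcgr1, the high-affinity IgG receptor CD64, was at 166, 110 and 172 TPM in FL lines and 5.47, 42.1 and 1.68 TPM in BM lines (4.02, SE 0.87, adjusted p = 0.013). Fcgr3, an activating IgG receptor of lower affinity, was at 575, 753 and 665 TPM in FL lines and 36.4, 126 and 21.9 TPM in BM lines (3.79, SE 0.56, adjusted p = 0.0027). BM line 2 was again the highest BM line for both, and without it the log2 fold changes were 5.15 and 4.50. Fcer1g, the signalling chain that these receptors share, was at 2772 to 3392 TPM in FL lines and 2373 to 2687 TPM in BM lines (0.28, adjusted p = 0.14).

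Among the chemokines tested, 6 rose and 2 fell in FL lines (median log2 fold change 1.61). Ccl12, a ligand of the monocyte receptor CCR2, was at 848, 87.0 and 499 TPM in FL lines and 0, 8.85 and 0.63 TPM in BM lines (7.05, SE 1.64, adjusted p = 0.018). Its neighbour Ccl7 was at 683, 141 and 807 TPM in FL lines and 16.4, 19.9 and 19.3 TPM in BM lines (4.46, SE 1.03, adjusted p = 0.017). FL line 2 was the lowest FL line for both, as it was for the related Ccl2, at 1259, 425 and 1083 TPM against 224 to 303 TPM in BM lines, which was not called (1.61, adjusted p = 0.20). Reads of these similar genes may be split between them. Pf4, a chemokine of platelets that these macrophages also held, was at 1729, 1303 and 615 TPM in FL lines and 69.8, 393 and 38.5 TPM in BM lines (3.43, adjusted p = 0.039), and its call was lost without FL line 1, BM line 1 or BM line 3 (adjusted p = 0.111 to 0.138). Vwf, which megakaryocytes and endothelial cells share, was the other marker of the megakaryocyte list above 1 TPM, at 27.3, 3.13 and 42.2 TPM in FL lines and 37.6 to 44.8 TPM in BM lines, and was not called. Ppbp, Itga2b, Gp1ba, Gp1bb and Gp9 stayed under 1 TPM in all 6 lines. Ccl5, which attracts T cells, overlapped between the groups, with FL line 2 at 16.6 TPM and BM line 2 at 20.3 TPM (3.39, adjusted p = 0.048), and its call was lost without FL line 1, FL line 3, BM line 1 or BM line 3 (adjusted p = 0.111 to 0.163). Ccl4 (2.05) and Ccl6 (2.08) rose as well. Cxcl14 fell from 28.4 to 33.2 TPM in BM lines to at most 0.25 TPM in FL lines (-4.74, SE 0.17, adjusted p = 3.2e-06). Ccl3 was not called, at 198 to 217 TPM in FL lines and 212 to 288 TPM in BM lines.

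Cytokines and TNF family ligands moved both ways, with 4 of 19 tested higher and 3 lower (36.8% called, median log2 fold change 0.31; 2 higher without FL line 1, FL line 2, BM line 1 or BM line 3, and 3 without another line). Tnfsf13, the B cell factor APRIL, was at 7.42, 10.3 and 12.3 TPM in FL lines and 171, 137 and 168 TPM in BM lines (-3.88, SE 0.28, adjusted p = 0.00017). Spp1, the secreted adhesion protein osteopontin, was at 668, 693 and 2201 TPM in FL lines and 16560, 15522 and 13837 TPM in BM lines (-3.92, SE 1.37, adjusted p = 0.077). Spp1 was far higher in every BM line, but its error was large. Within YS lines Spp1 ran from 108 to 7227 TPM, a spread that enters the error. Its call was lost without any 1 of the lines FL 1, FL 2, BM 1, BM 2 and BM 3 (adjusted p = 0.158 to 0.182). Il16 rose (2.52, SE 0.40, adjusted p = 0.0034) and Il7, a lymphocyte growth factor, fell (-1.72, SE 0.36, adjusted p = 0.012), the latter from 3.15 to 4.31 TPM in BM lines to 0.16 to 0.79 TPM in FL lines. Il1b was under 4 TPM in every line. Osm overlapped between the groups, with FL line 3 at 0.97 TPM and BM line 2 at 1.78 TPM, and its call (1.78, adjusted p = 0.073) was lost without FL line 1, FL line 2, BM line 1 or BM line 3 (adjusted p = 0.185 to 0.217). Tnf was at 54.9 to 95.9 TPM in FL lines and 87.5 to 97.0 TPM in BM lines and was not called.

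Growth factors counted 2 risers and 4 fallers among 12 tested, 50% called, with a median log2 fold change of -0.79, and these counts were the same with each line left out in turn. Igf1, the insulin-like growth factor that tissue macrophages secrete, was at 192, 225 and 191 TPM in FL lines and 38.5, 82.3 and 24.8 TPM in BM lines (2.21, SE 0.38, adjusted p = 0.0049). Hgf, the hepatocyte growth factor, was at 2.67, 6.52 and 8.97 TPM in FL lines and 0, 1.38 and 0 TPM in BM lines (2.28, SE 0.53, adjusted p = 0.017). Besides Vegfc, the fallers were Vegfa, at 0.12 to 0.37 TPM in FL lines and 1.3 to 4.56 TPM in BM lines, and the intracellular factors Fgf11 (-3.13, SE 0.80, adjusted p = 0.025) and Fgf13 (-3.40, SE 0.42, adjusted p = 0.0014). Granulin (Grn), a lysosomal growth factor, was at 2483 to 3267 TPM in FL lines and 1653 to 1844 TPM in BM lines, a difference under 2-fold (0.72, adjusted p = 0.033).

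Among 26 genes of LPS sensing and Toll-like receptor signalling, 4 rose and 1 fell (19.2%, median log2 fold change 0.17; 2 risers without BM line 3). Tlr7, an endosomal sensor of single-stranded RNA, was at 129, 104 and 135 TPM in FL lines and 0.12, 19.6 and 0.04 TPM in BM lines (5.42, SE 1.03, adjusted p = 0.0077; 6.83 without BM line 2). Tlr1, which pairs with TLR2 to bind lipopeptides, was at 34.0, 25.4 and 24.5 TPM in FL lines and 1.11, 6.92 and 1.62 TPM in BM lines (3.02, SE 0.43, adjusted p = 0.0023). Its partner Tlr2 went the other way, at 136, 53.2 and 99.6 TPM in FL lines and 249, 219 and 228 TPM in BM lines (-1.36, adjusted p = 0.031). The Tlr2 call was lost without FL line 2 (log2 fold change -0.99) or BM line 1 (adjusted p = 0.101). Tlr8, a second RNA sensor, was at 87.6 to 129 TPM in FL lines and 12.6 to 36.6 TPM in BM lines (2.05, adjusted p = 0.052), and its call was lost without FL line 2, FL line 3, BM line 1 or BM line 3 (adjusted p = 0.101 to 0.176). The adaptor Ticam2 (1.22, adjusted p = 0.013) fell under 2-fold without BM line 3 (0.92). Cd14, the LPS co-receptor, was at 84.9 to 201 TPM in FL lines and 137 to 294 TPM in BM lines and was not called (-0.57, adjusted p = 0.33).

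Of 33 interferon-induced effector genes tested, 8 rose and 0 fell, and 32 had a positive log2 fold change (median 1.22), yet the groups were apart in 6 of the 33, against 50.3% of all tested genes. The count depended on the lines: it was 13 without BM line 2 and 2 without BM line 3, which were the highest and the lowest BM line for each of the 6 risers given here. Mx1, an antiviral GTPase, was at 44.3, 6.55 and 23.3 TPM in FL lines and 0.22, 3.22 and 0 TPM in BM lines (3.55, SE 0.74, adjusted p = 0.011). Iigp1, an immunity-related GTPase, was at 102, 34.4 and 48.9 TPM in FL lines and 0.61, 8.65 and 0.10 TPM in BM lines (4.46, SE 0.90, adjusted p = 0.0098). Both belong to families of similar genes among which reads may be shared. The remaining named risers lost their call without 1 line: Zbp1, a sensor of Z-form nucleic acid (3.53, adjusted p = 0.045), without FL line 1, BM line 1 or BM line 3 (adjusted p = 0.132 to 0.151). Rsad2, the antiviral enzyme viperin (2.58, adjusted p = 0.066), lost it without FL line 1, FL line 3, BM line 1 or BM line 3 (adjusted p = 0.158 to 0.211), and Mx2 (1.91, adjusted p = 0.058) without the same lines (adjusted p = 0.128 to 0.178). Bst2, which tethers budding virus, was at 1402, 601 and 1147 TPM in FL lines and 316, 479 and 184 TPM in BM lines (1.70, adjusted p = 0.030; 0.109 without BM line 3). For Rsad2 and Mx2 FL line 2 lay under BM line 2, so the groups overlapped. Ifitm3, at 280 to 1539 TPM in FL lines and 222 to 1094 TPM in BM lines, was not called (0.67, adjusted p = 0.54).

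The interferon gamma receptor pathway counted 2 risers of 14 tested (14.3%, median log2 fold change 0.61; 4 without FL line 2, and 1 without any 1 of the lines FL 1, FL 3, BM 1 and BM 3). Irf8, a transcription factor of myeloid cells, was at 58.6, 51.3 and 50.2 TPM in FL lines and 20.8, 28.5 and 23.7 TPM in BM lines (1.11, SE 0.26, adjusted p = 0.017). Stat2 (1.16, adjusted p = 0.089) lost its call without FL line 1, FL line 3, BM line 1 or BM line 3 (adjusted p = 0.184 to 0.27). The receptor chains themselves were not called, with Ifngr1 at 108 to 162 TPM in FL lines and 122 to 139 TPM in BM lines and Ifngr2 higher by less than 2-fold (0.58, adjusted p = 0.015). In the list for MHC class II presentation, 2 of 7 tested genes rose (1 without FL line 1, BM line 1 or BM line 3), and they were the costimulatory receptors Cd40 (3.19, SE 0.55, adjusted p = 0.0051) and Cd86 (3.23, adjusted p = 0.034) rather than class II chains. Cd86 overlapped, with FL line 2 at 5.64 TPM and BM line 2 at 7.30 TPM, and its call was lost without FL line 1, BM line 1 or BM line 3 (adjusted p = 0.105 to 0.123). The class II chains H2-Aa and H2-Ab1 were under 1 TPM in every line. In the class I list, Psmb10, an immunoproteasome subunit, alone rose (1.25, SE 0.26, adjusted p = 0.012), whereas B2m and H2-D1 had log2 fold changes of -0.10 and -0.29 and were not called.

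The list of BCL2 family and p53 target genes was tilted to the BM side, with 11 of 43 tested lower and 3 higher in FL lines (32.6% called, median log2 fold change -0.54), and the number lower was 9 to 11 with any 1 line left out. Pmaip1, which encodes the death-promoting protein NOXA, was at 7.51, 3.30 and 5.85 TPM in FL lines and 111, 76.6 and 94.6 TPM in BM lines (-3.90, SE 0.26, adjusted p = 0.00011). Phlda3, a p53-induced inhibitor of AKT, was at 0.23, 16.9 and 0.43 TPM in FL lines and 107, 90.0 and 97.5 TPM in BM lines (-4.97, SE 0.86, adjusted p = 0.0052). Eda2r, a p53-induced receptor of the TNF family, was at 0, 0.16 and 0 TPM in FL lines and 13.8, 9.87 and 11.3 TPM in BM lines (-3.58, SE 0.20, adjusted p = 4.1e-05). FL line 2 alone among the FL lines held Phlda3 at more than 1 TPM. Bok, a relative of BAX and BAK, also fell (-3.15, SE 0.39, adjusted p = 0.0014), as did Bmf, Ccng1, Zmat3, Tnfrsf10b, Btg2, Plk2 and Gtse1, of which Plk2 (adjusted p = 0.094) lost its call without BM line 2 (adjusted p = 0.168). The p53 target Cdkn1a, the cell cycle inhibitor p21, went the other way, at 69.7, 466 and 388 TPM in FL lines and 0, 11.5 and 0 TPM in BM lines (6.66, SE 1.09, adjusted p = 0.0041). The other 2 risers were Sesn1 and Bcl2a1b, of which Bcl2a1b, a survival factor, was at 247, 418 and 325 TPM in FL lines and 4.87, 54.0 and 5.31 TPM in BM lines (4.68, SE 0.74, adjusted p = 0.0036; one of several near-identical copies, so its level is uncertain). Of the executioners, Bax was at 261, 409 and 278 TPM in FL lines and 465 to 516 TPM in BM lines, under 2-fold (-0.67, adjusted p = 0.024), and Bak1 had a log2 fold change of 0.50. The survival factor Mcl1 was at 226 to 253 TPM in FL lines and 380 to 476 TPM in BM lines, also under 2-fold (-0.83, adjusted p = 0.0039).

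Of 44 cell cycle regulators tested, 3 (6.82%) were called, all higher in FL lines, against 10.5% of all tested genes called. Their median log2 fold change over the 44 was 0.04. Apart from Cdkn1a they were the D-type cyclins Ccnd2, at 107, 96.2 and 45.5 TPM in FL lines and 0, 13.97 and 0.10 TPM in BM lines (4.95, SE 0.95, adjusted p = 0.0078), and Ccnd3, at 145, 200 and 175 TPM in FL lines and 49.9, 55.9 and 49.0 TPM in BM lines (1.72, SE 0.16, adjusted p = 0.0005). Ccnd1 was at 768 to 804 TPM in FL lines and 389 to 477 TPM in BM lines, just under 2-fold (0.90, adjusted p = 0.0039). The replication clamp Pcna was at 772 to 828 TPM in FL lines and 979 to 1092 TPM in BM lines (-0.40, adjusted p = 0.017).

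Genes linked with osteoclasts were lower in FL lines in 5 of 12 tested and higher in none (41.7% called, median log2 fold change -0.72), and 2 were called without BM line 3. Ctsk led the list, with BM line 3 at 1270 TPM. Src, a kinase that resorbing osteoclasts need, was at 0.67, 0.14 and 0.39 TPM in FL lines and 7.09, 5.17 and 6.93 TPM in BM lines (-2.41, SE 0.24, adjusted p = 0.00063). The calls of Siglec15, a sialic acid receptor (-2.63, adjusted p = 0.043), Dcstamp, a fusion protein (-2.25, adjusted p = 0.037), and Atp6v0d2, a proton pump subunit (-1.81, adjusted p = 0.042), each depended on single lines. Siglec15 lost its call without FL line 1, FL line 2, BM line 1 or BM line 3 (adjusted p = 0.104 to 0.137), Dcstamp without BM line 2 or BM line 3 (0.106 and 0.111), and Atp6v0d2 without FL line 1, BM line 1 or BM line 3 (adjusted p = 0.1002 to 0.147). The 8 osteoclast markers summed to 58.9 to 69.0 TPM in FL lines and 196 to 1415 TPM in BM lines, mostly from Ctsk and Nfatc1. Nfatc1, the transcription factor that drives osteoclast formation, was at 54.4 to 61.6 TPM in FL lines and 92.8 to 114 TPM in BM lines, under 2-fold (-0.83, adjusted p = 0.0019). Of the same markers, Acp5 was at 1.58 TPM or less and Calcr, Oscar and Ocstamp at 0.31 TPM or less in all 6 lines. Tyrobp and Trem2, an adaptor and its receptor, were at 1172 to 3312 TPM in the 6 lines and were not called (-0.46 and -0.33).

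Proteases and their inhibitors moved in both directions, with 7 of 22 tested higher and 4 lower (50% called, median log2 fold change 0.39; 2 lower without FL line 1, FL line 2 or BM line 3). Ctsc, cathepsin C, was at 219, 430 and 397 TPM in FL lines and 19.3, 71.5 and 5.58 TPM in BM lines (3.98, SE 0.76, adjusted p = 0.0077). Lgmn, the lysosomal protease legumain, was at 777, 1145 and 809 TPM in FL lines and 138, 180 and 57.1 TPM in BM lines (2.98, SE 0.38, adjusted p = 0.0016). Among matrix metalloproteinases, the elastase Mmp12 was at 326, 25.7 and 99.2 TPM in FL lines and 4.28 to 5.71 TPM in BM lines (3.99, SE 0.80, adjusted p = 0.0095), and the collagenase Mmp13 (3.52, SE 0.81, adjusted p = 0.017) and Mmp27 (2.87, SE 0.41, adjusted p = 0.0025) also rose. For each of these 5 genes the lowest FL line was above every BM line. The abundant cathepsins Ctsd and Ctsb were not called (0.54 and 0.49).

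In lipid and cholesterol handling, 2 of 34 tested rose and 4 fell (17.6%, median log2 fold change -0.20; 0 risers without FL line 3). Lpl, the lipoprotein lipase, was at 321, 64.8 and 41.8 TPM in FL lines and 1674, 1306 and 1693 TPM in BM lines (-4.00, SE 0.85, adjusted p = 0.013). Lipa, the lysosomal lipase, was at 261, 307 and 336 TPM in FL lines and 1000, 921 and 1020 TPM in BM lines (-1.70, SE 0.32, adjusted p = 0.0069). Insig1, a brake on sterol synthesis, fell by 1.12 (SE 0.27, adjusted p = 0.020). Pparg, a lipid-sensing nuclear receptor, was at 2.43 to 4.97 TPM in FL lines and 16.7 to 26.2 TPM in BM lines (-2.38, adjusted p = 0.050), and its call was lost without any line but FL line 1 (adjusted p = 0.105 to 0.146). Dhcr7 (1.19, adjusted p = 0.054) lost its call without any 1 line (adjusted p = 0.111 to 0.135), and Smpdl3a (1.01, adjusted p = 0.030) lost it without FL line 3 (log2 fold change 0.70) or BM line 3 (adjusted p = 0.115). Fabp5, a fatty acid binding protein, ran from 3.66 to 787 TPM within the FL lines and was not called.

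Of 36 macrophage transcription factors tested, 7 rose and 4 fell (30.6%, median log2 fold change 0.35; 4 risers without FL line 2, BM line 1 or BM line 3). Maf was at 283, 407 and 241 TPM in FL lines and 22.99, 51.4 and 17.4 TPM in BM lines (3.41, SE 0.37, adjusted p = 0.00091). Batf2, induced by interferon, was at 0.37, 0 and 1.03 TPM in FL lines and 10.6, 11.4 and 8.52 TPM in BM lines (-2.98, SE 0.63, adjusted p = 0.012). Runx2 (-1.54, SE 0.36, adjusted p = 0.018), known from bone-forming cells, and Egr2 (-1.4, SE 0.28, adjusted p = 0.010) fell as well. Cebpa, a myeloid factor, was at 72.8, 162 and 128 TPM in FL lines and 38.4, 41.0 and 39.6 TPM in BM lines (1.51, adjusted p = 0.057), and its call was lost without any line but FL line 1 (adjusted p = 0.121 to 0.158). Spi1, which encodes PU.1, was at 433 to 456 TPM in FL lines and 370 to 417 TPM in BM lines and was not called (0.19, adjusted p = 0.20).

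Among purinergic, chemokine and growth factor receptors, 9 of 27 tested rose and 4 fell (48.1%, median log2 fold change 0.56). P2ry12, an ADP receptor known from microglia, was at 81.0, 57.6 and 54.1 TPM in FL lines and 0, 12.8 and 0 TPM in BM lines (4.74, SE 0.89, adjusted p = 0.0071). Its relative P2ry13 (3.53, SE 0.53, adjusted p = 0.0028) and Gpr34 (4.15, SE 0.59, adjusted p = 0.0025), a receptor for lysophosphatidylserine, rose too, with P2ry13 listed at 0 in BM lines 1 and 3. P2ry12 and P2ry13 had in common that BM line 2 was the single BM line with any transcript. Cxcr4, the receptor that retains cells in the marrow, was at 24.4, 10.4 and 44.8 TPM in FL lines and 192, 147 and 183 TPM in BM lines (-2.88, SE 0.54, adjusted p = 0.0071). Fgfr1 was at 0.03, 0.03 and 0 TPM in FL lines and 24.2, 20.1 and 40.7 TPM in BM lines (-4.78, SE 0.25, adjusted p = 3.6e-05). The GM-CSF receptor chain Csf2ra fell, as did Csf2rb2, and Il4ra, Tgfbr2, Mertk, P2rx4, Ccrl2 and Igf1r rose.

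The monocyte and granule list counted 2 risers and 1 faller among 6 tested, with S100a4 at 2287 to 2573 TPM in FL lines and 8302 to 10260 TPM in BM lines (-1.96, SE 0.25, adjusted p = 0.0016), S100a8 at 10.5 to 25.1 TPM in FL lines and 3.43 to 5.00 TPM in BM lines (1.98, SE 0.45, adjusted p = 0.016), and Treml4 higher in FL lines (2.66, SE 0.31, adjusted p = 0.0011). Of 27 fetal and imprinted growth genes, 9 were tested, 2 rose and 1 fell. In this list 2 fell without FL line 2 or BM line 2 and under either other scaling, and 1 rose without BM line 1 or BM line 3. Igf2bp3, an RNA-binding protein of fetal tissue, was at 72.1, 56.6 and 61.1 TPM in FL lines and 21.7, 26.5 and 18.4 TPM in BM lines (1.48, SE 0.23, adjusted p = 0.0035). Hmga2, a chromatin protein of fetal stem cells, was lower in FL lines, at 9.01, 46.3 and 9.37 TPM against 97.9, 143 and 129 TPM in BM lines (-2.86, SE 0.53, adjusted p = 0.0069). These genes of fetal growth thus moved in opposite directions. The call of Arid3a (1.83, adjusted p = 0.037) was lost without BM line 1 or BM line 3 (adjusted p = 0.111 and 0.106). The let-7 regulators Lin28a and Lin28b did not exceed 0.05 TPM in any of the 6 lines. Of the Hox genes and cofactors, 10 of 25 were tested and Pbx4 alone was called, lower in FL lines (-1.05, adjusted p = 0.033), a call lost without FL line 1 (log2 fold change -0.88), BM line 1 or BM line 3 (adjusted p = 0.108 and 0.11).

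Grouped by chromosome, with 11283 of the 11325 tested symbols matched to a chromosome in the RefSeq table, chromosome 19 differed from the others. Of its 410 tested genes, 106 (25.9%) were called lower and 12 (2.93%) higher in FL lines, while on the other chromosomes together 394 of 10873 (3.62%) were lower and 673 higher. The median log2 fold change on chromosome 19 was -0.81 (quartiles -1.03 and -0.49), against 0.10 on the others, and -0.84 without BM line 2. All 3 FL lines lay under all 3 BM lines in 335 of the 410 genes, 81.7%, against 16.7% on the other chromosomes. Most of these differences were near 2-fold, since 11 of the 106 lower genes passed 4-fold. Genes of chromosome 19 made up 21.2% of all genes lower in FL lines, and Marveld1, Lipa, Ctsf, Batf2 and Csf2ra among those named here lie on it. The call of Ctsf, cathepsin F (-1.97, adjusted p = 0.066), was lost without BM line 2 (adjusted p = 0.148). Whether their difference has to do with their chromosome was not tested. Chromosomes 16 and 4 had the highest medians, 0.43 and 0.31. Genes are not independent replicates, and these values describe the 6 lines.

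**Figure D5:**
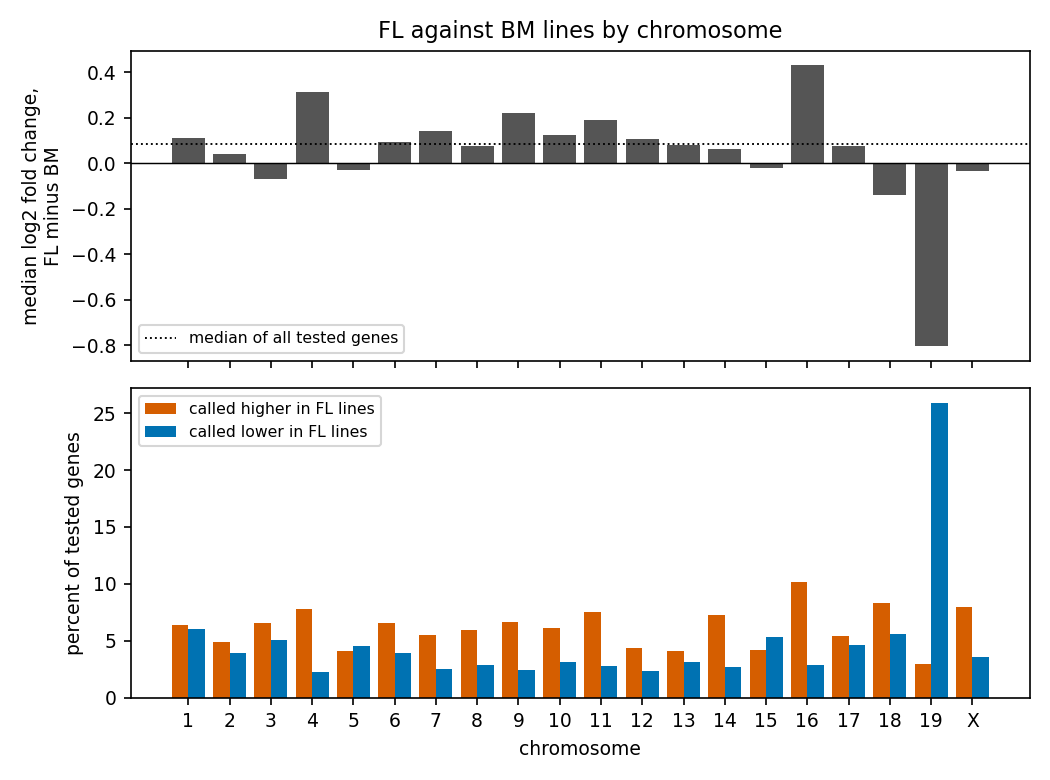
Upper panel, median log2 fold change (FL minus BM, log2(TPM + 1) scale) of the tested genes on each chromosome, with the median of all tested genes dotted; lower panel, percent of tested genes on each chromosome called higher (orange) or lower (blue) in FL lines. Chromosome 19 has a median of -0.81 and 25.9% of its genes called lower, where the other chromosomes range from 2.27% to 6.07%.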

How the data were processed

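RNA was sequenced by the authors from stranded, poly(A)-selected libraries, 1 per line, and they deposited a table of TPM (reads per transcript length, scaled to the same total in each library). The submitters' processing notes name Trim Galore 0.6.6, STAR 2.7.9a and RSEM 1.3.3; the genome build and annotation are not given in the sources used here. Raw counts, on which the authors' own tests ran, were not used. TPM keeps no depth, so precision rests on the spread among 3 lines.

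Lines were assigned to groups from the sample labels. Genes that reached 1 TPM in 3 or more of the 6 FL and BM libraries were kept. limma 3.58.1 (R 4.3.3) was fitted on log2(TPM + 1), pseudocount 1, over all 9 libraries with an intensity trend; a call needed an adjusted p under 0.1 (Benjamini-Hochberg) and a fold above 2. With 3 lines against 3, an exact permutation test of 1 gene cannot go below p = 0.1. The script was tested on simulated data. Members and lists were chosen with earlier results of these data known, and lists are described by counts and medians. The 10 largest rises and falls were taken among called genes whose groups did not overlap and that were also called without BM line 2; up to 6 called and 3 other members of a list, the latter the highest in TPM, and the 8 genes that moved most without BM line 2 were added. Genes outside these rules were named after their values were seen: further called members of long lists, genes present in 1 group alone, markers, and Lin28a, Lin28b, H2-Aa and H2-Ab1. Alternatives changed the pseudocount, filter, scaling, trend, libraries, thresholds and lines. Chromosomes and promoters came from RefSeq tables of GRCm38.p6, matched by symbol.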

Additional observations from a re-analysis of the deposited data

How the results depend on the processing

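Of the total counts, only dropping the fold threshold moved a value by more than 1.5 times, to 3261 called genes, 1999 higher and 1262 lower in FL lines. The other settings gave 847 (pseudocount 4) to 1294 (the 6 libraries alone). With 1 line left out, 914 (without BM line 3) to 1178 (without BM line 2) genes were called, 524 to 712 higher and 390 to 505 lower. Quantile normalization and median-of-ratios scaling moved the median of all genes from 0.08 to -0.007 and -0.005 and the share of higher genes among the called from 57.9% to 50.3% and 51.2%; under both, the interferon gamma receptor pathway had 1 riser and 1 faller, and the transcription factors had 6 risers with 7 and 5 fallers. Among the 166 named genes, none that was called in the main fit or under a setting changed direction under that setting. Named genes called in neither could change sign, such as Cd74, with a log2 fold change of -0.01 in the main fit and 0.48 without BM line 2. Of the calls of named genes, 26 were lost without BM line 3, 24 without BM line 1 and 15 without FL line 1. The number was 11 each without FL line 2 or FL line 3, against 6 without BM line 2. The largest rises and falls were named only if also called without BM line 2, so none of their calls could be lost there.

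The line numbers 1 to 3 recur across groups, but deviations of same-numbered lines correlated at -0.02, -0.11 and -0.01. No FL or BM line correlated best with the line of its own number in the other group. These weak values, from 3 lines per group, show no pairing by number, and whether a batch was shared by number was not tested. With the number as a replicate block 1175 genes were called, 678 higher and 497 lower, and 4 of the interferon effectors. Depth is unknown.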

Other observations

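The X-inactivation transcript Xist and the Y-linked genes did not pass the filter on low values and were not tested, but their levels differed between lines. Xist was at 303 TPM in FL line 2 and 176 TPM in FL line 3 and at 0.08 TPM or less in FL line 1 and all 3 BM lines. Eif2s3y, Ddx3y, Uty and Kdm5d were at 66.4, 47.7, 15.1 and 13.8 TPM in FL line 1, at 0.03 TPM or less in FL lines 2 and 3, and listed at 0 in all BM lines. No BM line thus held Xist above 0.08 TPM or any of these 4 Y-linked genes.

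Besides the globins, BM line 2 held fetal and imprinted transcripts that BM lines 1 and 3 had at 0, namely H19 at 5.79 TPM, Sgce at 6.47 TPM and Igf2 at 1.92 TPM, while the FL lines had at most 0.59 TPM of each. Kdr, a receptor for vascular endothelial growth factor, was at 17.4, 17.5 and 50.4 TPM in FL lines and did not exceed 0.86 TPM in BM lines. Of the other endothelial markers, Cdh5 was called higher in FL lines too, at 1.26 to 1.38 TPM against 0, 0.28 and 0 TPM, Stab2 reached 1.67 TPM in FL line 3, and Pecam1, Tek, Emcn, Egfl7 and Esam stayed at 0.59 TPM or less in all 6 lines. The summed markers of this list were 19.8 to 53.5 TPM in FL lines and 0.11 to 2.11 TPM in BM lines.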
